A study of Drosophila melanogaster with 3 samples.

Results

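A tandem, or head-to-tail, promoter lies where 1 gene ends and the next gene on the same strand begins. Of the 5202 optimal peaks of CG12155-eGFP on genome build dm6, 455 (8.75%) had their summit at such a promoter, which is 15.5% of the 2932 summits that lay within 500 bp of a protein-coding transcription start site (TSS). A summit was counted here when 3 conditions held. Its nearest protein-coding TSS lay within 500 bp, no other protein-coding gene started on the opposite strand within 500 bp upstream of that TSS, and the annotated 3' end of another protein-coding gene on the same strand lay within 500 bp upstream of it. No measured value other than the position of the summit entered this choice. The 455 summits lay at 441 TSSs of 439 genes, and 14 TSSs had 2 or more of them, so not all summits are independent places. Other TSSs without a start on the opposite strand are called isolated (1463 summits, 28.1%). Alternative starts inside a gene are among these, so isolated and tandem summits differ in more than the neighbouring gene. TSSs with a start on the opposite strand are called head-to-head (1014 summits, 19.5%). The remaining 2270 summits (43.6%) were over 500 bp from any protein-coding TSS.

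The peaks came from chromatin immunoprecipitation followed by sequencing (ChIP-seq), in which fragments of chromatin held by an antibody are sequenced and mapped. The labels give 1 group of 3 biological replicates of whole Drosophila melanogaster embryos aged 0 to 24 hours, males and females pooled, from a transgenic line that stably expresses the CG12155 protein with green fluorescent protein at its C terminus. Chromatin was sonicated to 200 to 800 bp, and GFP was the target of the antibody. With 1 group, no treated or mutant condition is compared, no control experiment was analysed here, and whole embryos mix all their cell types, so a weak peak in all cells and a strong peak in a few cannot be told apart.

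In compact genomes such as that of the fly, many genes follow each other closely on the same strand, and the short stretch between them holds the end of the upstream gene and the promoter of the downstream gene. The upstream part carries the signals for cleavage and polyadenylation, such as AATAAA, and the downstream part the core promoter at which RNA polymerase II starts. Fly core promoters fall into broad kinds. Those of widely expressed genes tend to carry the DNA replication-related element (DRE), bound by DREF and also by BEAF-32, or Motif 1, bound by M1BP, or Motif 6 and Motif 7, whereas the TATA box, the initiator and GAGA repeats are better known from developmentally regulated genes.

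The DNA between the 2 genes is shown for 6 of the strongest members, because these stretches run from the end of 1 gene to the start of the next and hold the summit. They were taken in order of strength among stretches 60 to 300 bp long with no annotated exon, and sequence from 1 arm was not considered. Each runs 5' to 3' on the strand of the genes, from the base after the annotated 3' end of the upstream gene to the base before the TSS, in the RefSeq copy of the Release 6 assembly (dm6). Capitals mark CGATA, TATCGATA (the DRE, which contains CGATA), GGTCACACT (Motif 1), CATCNCTA (the core of Motif 7), CAGCTG (an E-box), CAGGTAG (Zelda) and CAACACTG, a word added after the data were seen, on either strand, so that TATCG is CGATA read from the other strand. The stretch before CG14100 (chr3L:19590525-19590772, minus strand) follows ash1, and that before CG18549 (chr3R:12449047-12449295, plus strand) follows vrs. The stretch before CG11857 (chr3R:25258673-25258897, plus strand) follows Nup358, and that before nsl1 (chr3R:15793488-15793781, plus strand) follows Acyp2. The stretch before RpS29 (chr3R:9777944-9778041, plus strand) follows topi, and that before CG3408 (chr3L:9509584-9509792, minus strand) follows RpS9.
CG14100: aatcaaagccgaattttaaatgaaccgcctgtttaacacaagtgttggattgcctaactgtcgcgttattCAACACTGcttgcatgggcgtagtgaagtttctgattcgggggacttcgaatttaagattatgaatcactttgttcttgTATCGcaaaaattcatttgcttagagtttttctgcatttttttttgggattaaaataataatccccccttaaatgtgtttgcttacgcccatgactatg
CG18549: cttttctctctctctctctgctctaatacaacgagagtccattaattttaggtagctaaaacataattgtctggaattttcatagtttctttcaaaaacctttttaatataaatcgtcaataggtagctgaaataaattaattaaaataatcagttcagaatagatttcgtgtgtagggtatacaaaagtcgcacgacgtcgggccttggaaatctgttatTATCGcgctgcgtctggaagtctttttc
CG11857: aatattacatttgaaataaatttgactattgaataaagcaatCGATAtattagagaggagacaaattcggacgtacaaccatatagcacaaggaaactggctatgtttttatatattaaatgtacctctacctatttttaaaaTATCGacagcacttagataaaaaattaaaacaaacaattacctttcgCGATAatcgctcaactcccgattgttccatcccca
nsl1: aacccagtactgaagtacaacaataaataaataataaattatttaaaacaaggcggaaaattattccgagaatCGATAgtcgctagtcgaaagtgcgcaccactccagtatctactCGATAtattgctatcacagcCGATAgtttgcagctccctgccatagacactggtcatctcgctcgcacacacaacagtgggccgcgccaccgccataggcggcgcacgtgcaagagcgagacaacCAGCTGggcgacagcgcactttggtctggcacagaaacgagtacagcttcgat
RpS29: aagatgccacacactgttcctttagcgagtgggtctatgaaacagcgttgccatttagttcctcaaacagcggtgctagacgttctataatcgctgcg
CG3408: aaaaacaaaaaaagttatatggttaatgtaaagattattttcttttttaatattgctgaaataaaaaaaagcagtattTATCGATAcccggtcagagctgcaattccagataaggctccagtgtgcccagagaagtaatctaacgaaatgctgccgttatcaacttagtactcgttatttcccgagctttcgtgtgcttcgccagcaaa

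These 6 stretches differ in what they hold. The GC content was 31.1% before CG11857, 34.5% before CG18549, 35.9% before CG3408 and 37.1% before CG14100, against 48.0% before RpS29 and 49.0% before nsl1. CGATA on either strand occurred 3 times before nsl1 and before CG11857, 1 time before CG14100 and before CG18549, and not in the 98 bp before RpS29. CG3408 had the only DRE, with its 2 overlapping CGATA. The summit fell 3 bp from the centre of the nearest CGATA at CG14100, 19 bp at CG11857 and 20 bp at nsl1, but 102 bp at CG18549 and 123 bp at CG3408. Counted from the 5' end of each stretch, the summit was base 155 of 248 at CG14100, base 122 of 249 at CG18549, base 127 of 225 at CG11857, base 159 of 294 at nsl1, base 86 of 98 at RpS29 and base 207 of 209 at CG3408. In the last 2, the summit lay 13 bp and 3 bp upstream of the TSS.

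The strongest tandem peaks were strong in every replicate. Strength is given as a rank in a list, 1 being the strongest, because the signal is the authors' own value with no stated scale. The highest pooled signal of all 5202 peaks was at a tandem promoter, upstream of Naus (FBgn0034308) and after CG10914 (FBgn0034307). The peak (dm6, 2R, 18160139 to 18160923) ranked 1, 1 and 3 in replicates 1, 2 and 3. Its summit lay 256 bp upstream of the Naus TSS and 154 bp past the 3' end of CG10914, in a gap of 410 bp, outside annotated genes. The peak at CG10492 (FBgn0032748), after the proteasome gene Rpn3, ranked 9 in the pool and 11, 9 and 7 in the replicates, with its summit 292 bp past the TSS in the 5' UTR. CG14100 (FBgn0036889), after ash1, the gene of a Trithorax-group histone methyltransferase, ranked 12 in the pool and 22, 6 and 8 in the replicates. No replicate ranked any of these 3 peaks below 22.

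The next members lay at genes with varied tasks. ClpX, which encodes the unfoldase of a mitochondrial protease, follows Surf6, a gene of ribosome assembly in the nucleolus, and its peak ranked 17, 39 and 32 in replicates 1, 2 and 3, with the summit 92 bp upstream of the TSS. CG4497, after CG4502, ranked 23, 20 and 44, with the summit 14 bp upstream. Atxn7, which encodes a subunit of the SAGA complex, ranked 31, 63 and 112, with the summit 17 bp past the TSS. Axs, a gene needed for chromosome segregation in meiosis, ranked 46, 56 and 92 after Septin4. GstE13, a glutathione S-transferase gene after the SUMO ligase gene Su(var)2-10, ranked 95, 43 and 49. Replicate 3 gave the lowest standing of the 3 replicates at Atxn7, Axs and CG4497, but not at GstE13 or ClpX.

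The remaining 12 of the 20 strongest members supported by all 3 replicates ranked from 78 to 216 in the pool, and no replicate ranked any of the 20 below 432. They were CG18549, CG17292 (after Pp2A-29B, the scaffold subunit of protein phosphatase 2A), Brd7-9 (a bromodomain gene), CG11857 (after the nuclear pore gene Nup358), CG1635 (after the kinetochore gene rod), Hpf1 (after the proteasome gene Rpn5), nsl1 (a subunit of the non-specific lethal complex), RpS29 (after topi, a testis transcription factor gene), Pcd, Jwa, Ufsp1 (after vimar) and Pat1. Among these 12, CG1635 had the narrowest span of ranks, with 133, 133 and 109, and Pat1 the widest, with 144, 296 and 432. RpS29, a protein of the small ribosomal subunit, ranked 115, 284 and 154. Of the 20, 13 had the summit between the 2 genes and 7 had it at or past the TSS, and their gaps ran from 99 to 440 bp with a median of 272 bp.

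**Figure D1:**
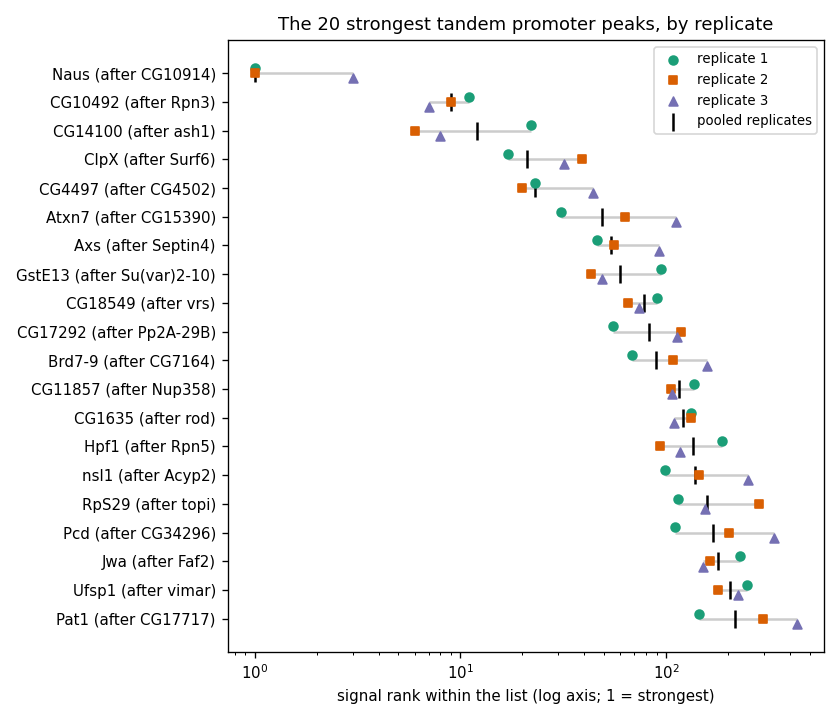
Signal rank (log axis, 1 = strongest) of the 20 strongest tandem promoter peaks supported by all 3 replicates, with the downstream gene and, in brackets, the gene that ends upstream. Symbols are replicates 1, 2 and 3 and the vertical bar is the pooled list. Naus ranked 1, 1 and 3, and the lowest standing of any point was 432, at Pat1 in replicate 3.

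Over all 455 members, 324 (71.2%, 95% Wilson interval 66.9 to 75.2%) were overlapped by the 5202 strongest regions of all 3 replicates, against 73.2% of all optimal peaks. The share was 74.5% (72.2 to 76.7%) of isolated and 80.3% (77.7 to 82.6%) of head-to-head summits. Another 86 members had 2 replicates, 42 had 1 and 3 had none. Replicates 1, 2 and 3 overlapped 90.5, 82.2 and 87.9% of the members (86.9 ± 4.27%, SD, n = 3). Support followed strength: all 113 of the strongest members (ranks 1 to 1488) had all 3 replicates, against 20 of the 114 weakest (17.5%, ranks 3902 to 5164). The optimal set draws on the pool of the same replicates, so this support is a description of the set. Intervals here and below cover counting error only.

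Tandem peaks ranked lower on the whole than other promoter peaks. Their median pooled rank was 2804, against 2468 for isolated and 2039 for head-to-head summits. Members are 8.75% of all optimal peaks, and 11 of them stood among the strongest 100 and 69 among the strongest 1000. The strongest 100 thus held more than that share and the strongest 1000 less. When the 5202 strongest regions of each replicate were classed in the same way, they held 480, 404 and 433 tandem summits (439 ± 38.4, SD, n = 3). Their median rank was 293, 182 and 212 places lower than that of isolated summits in replicates 1, 2 and 3 (229 ± 57.4), and 736 ± 48.8 places lower than that of head-to-head summits (SD, n = 3 each). Both differences had the same direction in 3 of 3 replicates. The exact sign-flip permutation test over the replicates (two-sided) gave p = 0.25 for each, which is the smallest p that 3 replicates allow, so no difference below can pass a threshold of 0.05. Of the 34 differences from isolated and head-to-head summits computed in this way, 23 were at this smallest p in the exact test, and the smallest Benjamini-Hochberg adjusted p was 0.370. Peaks and promoters are not replicates and were not tested as such.

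Summits at tandem promoters lay close to the TSS of the downstream gene and mostly upstream of it. The median position was -69.0 bp, with quartiles of -130 and -20.0 bp. Replicates 1, 2 and 3 gave medians of -63.0, -86.5 and -66.0 bp (-71.8 ± 12.8 bp, SD, n = 3). Isolated summits had a median of -142 bp and head-to-head summits -65.0 bp. The median tandem position was 73.0 bp nearer to the TSS than the median isolated position in the optimal set. It was 67.0, 67.5 and 75.5 bp nearer in replicates 1, 2 and 3 (70.0 ± 4.77 bp, SD, n = 3, exact sign-flip p = 0.25). These are medians of signed positions, negative being upstream, and not of absolute distances. With a summit allowed only within 200 bp of the TSS, this difference was 19.0 bp. From head-to-head summits the replicates differed by -5.83 ± 5.97 bp, which is not larger than the spread between them. With 1 TSS per gene, which leaves out alternative starts, the difference of 73.0 bp from isolated summits was 58.5 bp.

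The positions were also less scattered than at isolated promoters. The interquartile range was 110 bp at tandem, 203 bp at isolated and 95 bp at head-to-head promoters, and the share of summits within 150 bp upstream of the TSS was 65.5% at tandem, 36.2% at isolated and 73.0% at head-to-head promoters. At head-to-head promoters a summit is assigned to the nearer of 2 starts, which limits how far upstream it can lie. A summit lay upstream of the TSS in 379 of 455 members (83.3%, 79.6 to 86.4%), 84.4% of isolated and 79.4% of head-to-head summits. The tandem and isolated shares differed by -1.34 ± 0.825 percentage points over the replicates (SD, n = 3).

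**Figure D2:**
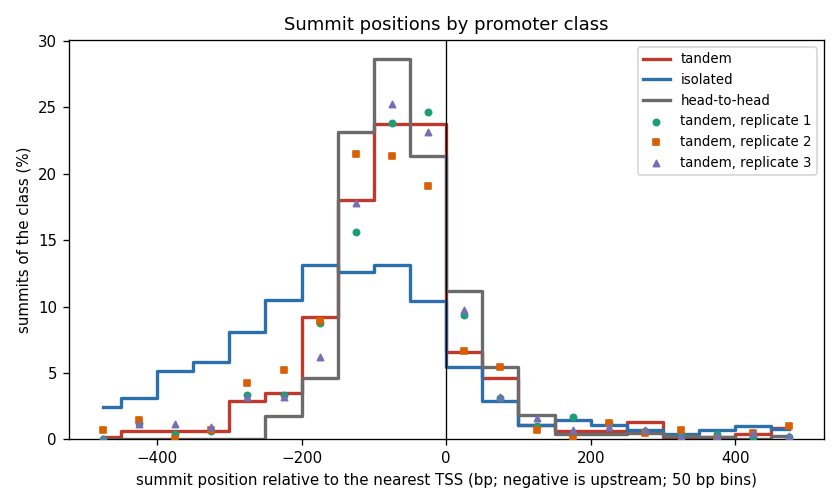
Share of the summits of each promoter class (%, 50 bp bins) by position relative to the nearest TSS (bp, negative is upstream). Lines are the optimal set and symbols are the tandem summits of each replicate's 5202 strongest regions. Tandem summits had a median of -69.0 bp and isolated summits a median of -142 bp.

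Most tandem summits fell in the gap itself. The gap, from the annotated 3' end of the upstream gene to the TSS, was 11 to 500 bp long among the members, with a median of 277 bp. The summit lay between the 3' end and the TSS in 347 of the 455 members (76.3%, 72.1 to 79.9%), inside the upstream gene in 32 (7.03%) and at or past the TSS in 76 (16.7%). In the replicates' own lists the share in the gap was 74.7 ± 1.38% (SD, n = 3), and it was 56.1% when the 3' end had to lie within 200 bp of the TSS. The summit was nearer to the TSS than to the 3' end in 352 members (77.4%). The peaks of the optimal set had a median width of 430 bp, and 386 of the members' peaks (84.8%) covered the TSS, 225 (49.5%) the 3' end and 195 (42.9%) both. Many weaker peaks had exactly this width with the summit at their middle, so their coverage follows from the summit's position.

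The annotation at the summit mirrored this. Of the 455 summits, 308 (67.7%) lay outside annotated genes, 74 (16.3%) in a 5' UTR, 31 (6.81%) in a 3' UTR, 28 (6.15%) in an intron, 7 in a coding exon and 7 in another exon. Of isolated summits, 44.3% lay outside genes, 36.0% in an intron and 0.615% in a 3' UTR. Of head-to-head summits, 67.6% lay outside genes and 0.197% in a 3' UTR. Tandem promoters were defined by a nearby 3' end and isolated ones by its absence, so the class rule itself bears on the 3' UTR share.

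The 32 summits inside the upstream gene were not the weakest. Their median pooled rank was 2590, against 2872 for those in the gap and 2464 for those at or past the TSS, and 24 of the 32 (75%, 57.9 to 86.7%) had all 3 replicates. Over replicates the median ranks were 2619 ± 73.6 inside, 2744 ± 131 in the gap and 2694 ± 355 past the TSS (SD, n = 3 each), so the differences between zones were within the spread of the replicates. Their gaps were short, with a median of 106 bp. The 3 strongest, chosen after their values were seen, all lay in a 3' UTR. The summit before CG17726 lay 38 bp upstream of the 3' end of scpr-C and ranked 248, 252 and 329 in replicates 1, 2 and 3. The summit before Cka, which encodes the striatin of the STRIPAK complex, lay 233 bp upstream of the 3' end of baf, the gene of a chromatin-binding protein of the nuclear envelope, and ranked 148, 376 and 1065. The summit before Gorab lay 27 bp upstream of the 3' end of frc, a nucleotide-sugar transporter gene, and ranked 660, 387 and 631. Cka had the widest range of these ranks, and its peak was strongest in replicate 1.

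The position of the summits was also described by the width of the gap. In gaps of 0 to 100, 101 to 200, 201 to 300, 301 to 400 and 401 to 500 bp, the median position relative to the TSS was -50.0, -49.0, -75, -93.5 and -90.0 bp. The median position relative to the 3' end, positive being past it, was 22, 111, 178, 273 and 349 bp in the same bins, which held 32, 107, 118, 100 and 98 members. The distances from the 3' end and from the TSS add up to the gap, and members were chosen by the gap and by a summit near the TSS, so the larger distance from the 3' end in wider gaps follows in large part from the choice and was given no test. The medians relative to the TSS spanned 44.5 bp over the 5 bins. Summits inside the upstream gene numbered 14 in the narrowest bin, 15 in the second, 3 in the third and 0 in each of the 2 widest, where the limit of 500 bp leaves less room for them.

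**Figure D3:**
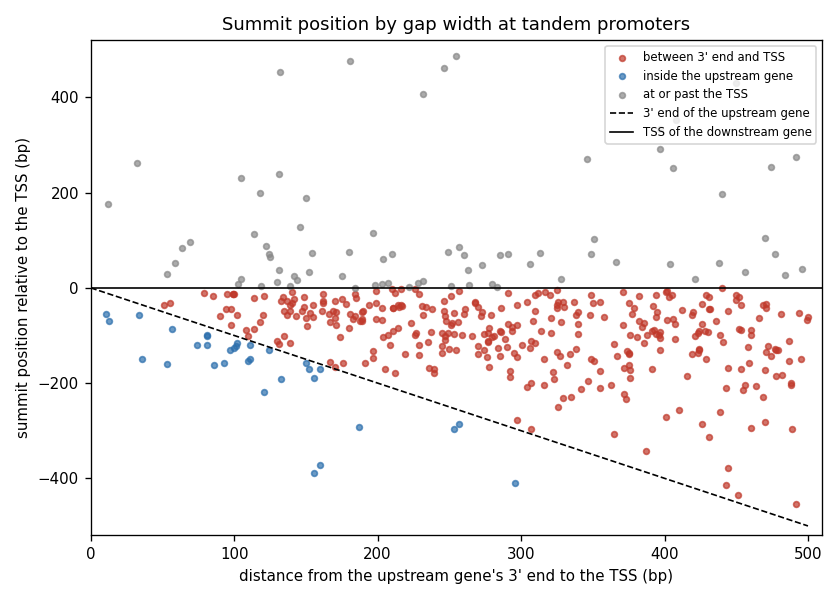
Position of each of the 455 summits relative to the TSS (vertical axis, bp, negative is upstream) against the gap from the 3' end of the upstream gene to that TSS (horizontal axis, bp). The solid line is the TSS, the dashed line the 3' end, and colours give the 347 summits between them, the 32 inside the upstream gene and the 76 at or past the TSS. Most points lie between the lines, and the limit of 500 bp around the TSS bounds the cloud above and below.

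Wider gaps more often had a summit. Of 2935 tandem TSSs, 528 (18%, 16.6 to 19.4%) had an optimal summit within 500 bp, against 24.0% of all 19253 protein-coding TSS positions. By gap width the share was 10.6% (45 of 423 TSSs) at 0 to 100 bp, 13.6% (113 of 833) at 101 to 200 bp, 20.3% (142 of 701) at 201 to 300 bp, 22.2% (117 of 527) at 301 to 400 bp and 24.6% (111 of 451) at 401 to 500 bp. The share was higher at each wider step, in the optimal set and in each replicate's list. The widest bin exceeded the narrowest by 16, 13.9 and 14.3 percentage points in replicates 1, 2 and 3 (14.7 ± 1.12, SD, n = 3, exact sign-flip p = 0.25).

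Head-to-head promoters had a summit within 500 bp at 52.0% of 4344 TSSs (50.5 to 53.4%). Tandem minus head-to-head was -34.0 percentage points in the optimal set and -33.0 ± 0.817 over the replicates (SD, n = 3, exact sign-flip p = 0.25). A summit between 2 divergent starts counts for both in these values. With each summit counted at its nearest TSS only, a count added after the data were seen, 441 of 2935 tandem TSSs (15.0%) and 1003 of 4344 head-to-head TSSs (23.1%) had one. The difference was then -8.06 points, and -8.38 ± 0.618 over the replicates. In this count a summit between 2 divergent starts counts for only 1 of them, while both stay in the 4344. The first count thus favours head-to-head TSSs and the second works against them. Isolated promoters had a summit at 15.3% of 11974 TSSs (14.7 to 16%), so tandem minus isolated was 2.67 points, and 2.72, 0.878 and 2.45 points in replicates 1, 2 and 3 (2.02 ± 0.995). This small difference changed sign, to -3.56 points with the 3' end required within 200 bp of the TSS and to -1.74 points with summits allowed within 1000 bp, so its direction rests on these limits. It was 1.39, 2.44 and 1.35 points with replicate 1, 2 or 3 left out and support from both others required, and 3.57 points with each summit counted at its nearest TSS only.

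**Figure D4:**
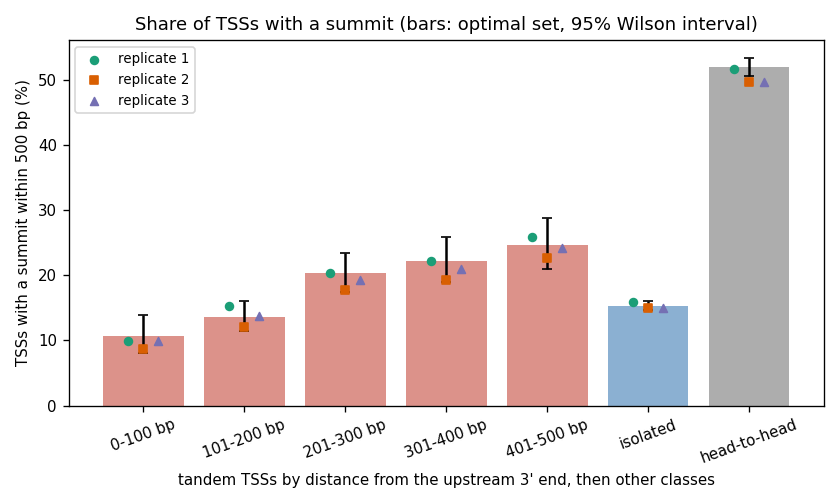
Share of TSSs with a summit within 500 bp (%), for tandem TSSs in 5 bins of the gap and for isolated and head-to-head TSSs. Bars are the optimal set with 95% Wilson intervals and symbols are the 5202 strongest regions of each replicate. The tandem share ran from 10.6% in the narrowest gaps to 24.6% in the widest, between which the isolated share of 15.3% falls, while head-to-head TSSs, where 1 summit can count for 2 starts, reached 52.0%.

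The limits of 500 bp cut through a continuous spread of gaps. Just inside the limit on the gap were Sos, the gene of a Ras exchange factor (gap 500 bp, pooled rank 3279), kibra, a gene of the Hippo pathway (499 bp, rank 2845), and uri (496 bp, rank 2432). Just outside were the summits at CG10958 (502 bp, rank 1916), CG14480 (504 bp, rank 3567) and Ulp1, a SUMO protease gene (507 bp, rank 5058). Just inside the limit on the summit were CG4615, CG5567 and Nmt, with summits 486, 477 and 461 bp past the TSS. Just outside were CG31259 and CG11200, with summits 545 and 553 bp past it, and pigs, with a summit at -566 bp and a pooled rank of 467.

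Members lay on all large arms in like measure. The largest number, 128 of the 455, lay on 3R, against 97 for 2R, 85 for 2L, 81 for 3L and 63 for X. The share of tandem TSSs with a summit was 19.3% on 3R (16.6 to 22.3%), 18.9% on X (15.3 to 23.2%), 17.7% on 2L (14.8 to 20.9%), 17.7% on 3L (14.8 to 21.1%) and 16.4% on 2R (13.8 to 19.5%), with overlapping intervals. The small chromosome 4 had 1 of its 3 tandem TSSs with a summit, at Mpv17, and its peak ranked 7156, 4161 and 4744 in the replicates.

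Among gene groups chosen by symbol, the cytoplasmic ribosomal proteins stood highest. Of their 14 genes with a tandem TSS, 9 had a summit (64.3%), against 454 of all 2692 protein-coding genes with a tandem TSS (16.9%). The strongest after RpS29 was RpL23A, after RabX5, with ranks of 518, 599 and 426 in replicates 1, 2 and 3 and its summit 101 bp upstream of the TSS. RpL11, after the elongation factor gene Spt5, ranked 819, 1608 and 967, with the summit at -48 bp. RpL24, after CG16957, ranked 1127, 1954 and 2166, with the summit at -12 bp. Of all 92 cytoplasmic ribosomal protein genes, 6 were the upstream gene of a member, against 439 of all 13945 protein-coding genes. Examples are RpS9 before CG3408 and RpS28a before Mgat2. How many of the 92 end close before another TSS was not counted. The group was not tested, and its genes are few.

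The other groups had few tandem genes each, and none was tested. Over all 2692 protein-coding genes with a tandem TSS, 454 (16.9%) had a summit. A summit was found at 4 of 13 mitochondrial ribosomal protein genes, the strongest being mRpL9 (ranks 1420, 2051 and 3179), and at 3 of 8 translation initiation factor genes, led by eIF2A (4167, 4492 and 1170). It was found at 2 of 6 proteasome genes, Rpn10 and Prosalpha2, and at 2 of the 9 aminoacyl-tRNA synthetase genes that the symbol pattern took, AlaRS and PheRS-m. The pattern missed beta-PheRS, whose peak after jar ranked 2492 in the pool, and alpha-PheRS, the upstream gene at CG17982 (rank 1030). Complex I of the respiratory chain had 1 of 10, ND-B22, and the nuclear pore and Mediator each had 1 of 3, Nup107 and MED4. The names made of Rab and a number gave 2 of 8, Rab1 and Rab3-GAP, of which Rab3-GAP is not itself a Rab GTPase. Rabex-5 and RabGGTb, also members, fall outside that pattern. The 43 chemosensory receptor genes with a tandem TSS had none, which allows a share of up to 6.98%, and the 5 vacuolar ATPase and 5 cuticle protein genes had none, which allows up to 60% each. Some of these genes instead ended upstream of a member, such as Ir68b before yps, the gene of a Y-box RNA-binding protein (ranks 437, 1329 and 729), Cpr66Cb before Pex2, and Vha14-1 before Gmppa. MED4 was both, as it begins at a member summit after CG14830 and ends before Cdc27, the gene of a subunit of the anaphase-promoting complex, at another.

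The upstream gene often had a summit of its own. In 179 of the 455 members (39.3%, 35.0 to 43.9%) the gene that ends upstream had another optimal summit within 500 bp of one of its own TSSs, against 641 of 2407 tandem TSSs without a summit (26.6%, 24.9 to 28.4%) and 26.2% of all 13945 protein-coding genes. The member's own summit was left out, but another summit in the same interval could count. The 2407 TSSs were chosen to have no summit within 500 bp. Where the upstream gene is short, this can also leave out summits near its start and lower their share, so part of the difference can follow from the choice. The difference was 14.7, 12.6 and 11.5 percentage points in replicates 1, 2 and 3 (12.9 ± 1.65, SD, n = 3, exact sign-flip p = 0.25), larger than the spread between replicates. In 19 members the upstream gene was itself the downstream gene of another member, as in the MED4 and Cdc27 pair. The upstream genes of members had a median length of 2295 bp, against 2053 bp for those of tandem TSSs without a summit, and 2 of them were nested in the downstream gene.

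Motifs were searched on both strands in the 101 bp around each summit. CGATA, the core bound by BEAF-32 and contained in the DRE, was found at 144 of 455 tandem summits (31.6%, 27.5 to 36.1%), against 22.6% of isolated and 31.1% of head-to-head summits. In the windows 500 bp to either side of the same members it was at 11.2%. Tandem minus isolated was 10.7, 5.54 and 9.48 percentage points in replicates 1, 2 and 3 (8.56 ± 2.68, SD, n = 3, exact sign-flip p = 0.25). The optimal-set difference of 9.02 points was 4.33 points when the 3' end had to lie within 200 bp and 4.75 points with 1 TSS per gene, which leaves out alternative starts. From head-to-head summits the replicates differed by 0.232 ± 1.49 points, within their spread. The longer DRE, TATCGATA, was at 5.71% of tandem, 3.21% of isolated and 5.92% of head-to-head summits, and at 0.110% of the members' flanking windows. Its difference from isolated summits was 3.02 ± 0.649 points over the replicates, and 2.50 points in the optimal set. Over the alternatives it ran from 0.781 points with 1 TSS per gene, with 1.33 points when replicate 3 was left out and support from both others required, to 5.20 points with the 3' end within 200 bp and 7.06 points with motifs counted within 100 bp of the summit.

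The core of Motif 7, CATCNCTA, was at 33 tandem summits (7.25%), against 2.80% of isolated and 4.73% of head-to-head summits and 0.659% of the flanking windows. The difference from isolated summits was 4.26, 3.69 and 2.13 points in replicates 1, 2 and 3 (3.36 ± 1.10, SD, n = 3). Motif 1, GGTCACACT, was at 3.30% of tandem, 1.23% of isolated and 1.87% of head-to-head summits. In the 910 flanking windows of the members it was not found, which allows a share of up to 0.330%. Its difference from isolated summits was 2.13 ± 1.33 points over the replicates. In the optimal set it was 2.07 points, with 1.28, 1.25 and 1.10 points when replicate 1, 2 or 3 was left out in that way, 1.03 points among peaks with all 3 replicates and 4.47 points within 100 bp of the summit. GAGA repeats, GAGAG, went the other way, at 7.25% of tandem and 13.5% of isolated summits (-5.35 ± 1.15 points over the replicates, SD, n = 3), with 7.20% at head-to-head summits and 11.6% in the members' flanks. The GAGAG difference of -6.28 points in the optimal set was -3.26 points among the strongest 50% of the peaks, -3.28 points with 1 TSS per gene and -10.7 points within 100 bp of the summit.

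The E-box CAGCTG was at 6.81% of tandem and 4.58% of isolated summits, and the replicates differed by 1.22 ± 1.38 points. Its difference of 2.23 points in the optimal set kept its direction in 13 of 13 alternatives, and was 6.75 points within 100 bp of the summit. The Motif 6 core, GTATNTTT, was at 6.15% and 4.37% and the TATA box, TATAAA, at 16.3% and 17.3% of tandem and isolated summits, each with replicates on both sides of 0. The initiator TCAGTT was at 5.93% of tandem and 5.67% of isolated summits. CAGGTAG, the site of the early activator Zelda, was at 0 of 455 tandem summits, which allows a share of up to 0.659%, against 0.342% of isolated summits. AATAAA, the polyadenylation signal, was at 24.8% of tandem, 26.2% of isolated and 34.3% of head-to-head summits, and on the strand of the genes at 14.3% of tandem, 13.6% of isolated and 18.5% of head-to-head summits. Tandem minus head-to-head was -7.39, -6.51 and -7.10 points in replicates 1, 2 and 3 (-7.00 ± 0.449, SD, n = 3, exact sign-flip p = 0.25). Tandem minus isolated had replicates on both sides of 0 and was -1.34 points in the optimal set, but 7.67 points within 100 bp of the summit.

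CGATA was most frequent at the summits that lay in the gap. It was at 121 of the 347 summits between the 2 genes (34.9%), at 18 of the 76 at or past the TSS (23.7%) and at 5 of the 32 inside the upstream gene (15.6%). The DRE was at 24, 2 and 0 of them and the Motif 7 core at 29, 3 and 1 of them, in the same order. Outside the gap the counts are small, and these shares were neither tested nor taken by replicate. With the members split by rank into 4 sets of 113 or 114, from strongest to weakest, CGATA was at 29.2, 25.4, 36.0 and 36.0% of them, lower in the stronger 2 sets than in the weaker 2. Within 250 bp of the summit, 306 members (67.3%) had CGATA, and the nearest lay within 50 bp in 148 of these (48.4%). For the Motif 7 core the nearest lay within 50 bp in 33 of 77 members (42.9%), and for the TATA box in 74 of 266 (27.8%).

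Tandem promoters with and without a summit were then compared in a window fixed to the TSS, from 250 bp upstream to 50 bp past it, which does not depend on where the summit lay. Tandem TSSs without a summit more often had narrow gaps, so their windows more often reached into the upstream gene. A summit was present at 10.6% of tandem TSSs with gaps of 0 to 100 bp and 24.6% at 401 to 500 bp. The sets were not matched for gap width. The Motif 7 core was in 74 of 528 promoters with a summit (14%, 11.3 to 17.2%), against 87 of 2407 without one (3.61%, 2.94 to 4.44%) and 5.67% of all 19253 promoters of the same length. Motif 1 was in 13.6% of those with a summit (11 to 16.8%), 5.57% of those without (4.72 to 6.56%) and 5.23% of all. The DRE was in 15.7% of those with a summit (12.9 to 19.1%), 8.27% of those without (7.23 to 9.44%) and 7.98% of all. With minus without was 10.4 ± 1.17 points for the Motif 7 core, 7.39 ± 0.781 for Motif 1 and 7.13 ± 0.579 for the DRE over the replicates (SD, n = 3, exact sign-flip p = 0.25 each). All 3 were more frequent with a summit in 3 of 3 replicates.

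CGATA was in 55.9% of tandem promoters with a summit, 46.1% of those without and 45.7% of all (9.47 ± 1.60 points, with minus without, SD over 3 replicates). The E-box was in 21.8% with a summit and 17.0% without (4.17 ± 1.01 points), and the Motif 6 core in 21.2% with and 16.1% without (4.64 ± 2.09 points). TCAGTT, the letters of the initiator counted anywhere in the window, was less frequent with a summit, in 18.6% against 27.5% without (-8.83 ± 0.786 points). TATAAA was in 44.7% with and 49.0% without (-4.00 ± 1.22 points), GAGAG in 23.3% with and 26.2% without (-2.78 ± 0.650 points), and CAGGTAG in 0.379% with and 1.54% without (-1.05 ± 0.144 points). AATAAA was in 71.0% with and 68.9% without, with the replicates on both sides of 0, and in 53.8% of all promoters. In the 50 bp before the 3' end of the upstream gene, AATAAA stood at 59.8% of members (55.2 to 64.2%) and 58.4% of tandem TSSs without a summit (56.4 to 60.3%). Where a summit was present, the DRE, CGATA, Motifs 1, 6 and 7 and the E-box were more frequent in 3 of 3 replicates, and the initiator, the TATA box, the GAGA motif and the Zelda motif less frequent.

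Copies of Motif 1 lay mostly on the strand of the gene and near the TSS. Of its copies at tandem TSSs with a summit, 55 lay on the strand of the gene and 19 on the other, with a median centre at -10.0 bp from the TSS. The Motif 7 core had 60 copies on the gene's strand and 22 on the other, with a median of -23.5 bp. CGATA had 369 copies on the gene's strand and 358 on the other, with a median of -45.0 bp, and the palindromic DRE had a median of -47.5 bp. The summits' own median of -69.0 bp is upstream of each of these medians and of the E-box median, -23.0 bp. It is not upstream of the medians of the Motif 6 core, -82.5 bp, and the TATA box, -144 bp. Motif medians come from 250 bp before to 50 bp past the TSS, and the summits' median from 500 bp to either side. A match is a run of letters and not a measured binding site, and neighbouring TSSs can share the same letters.

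**Figure D5:**
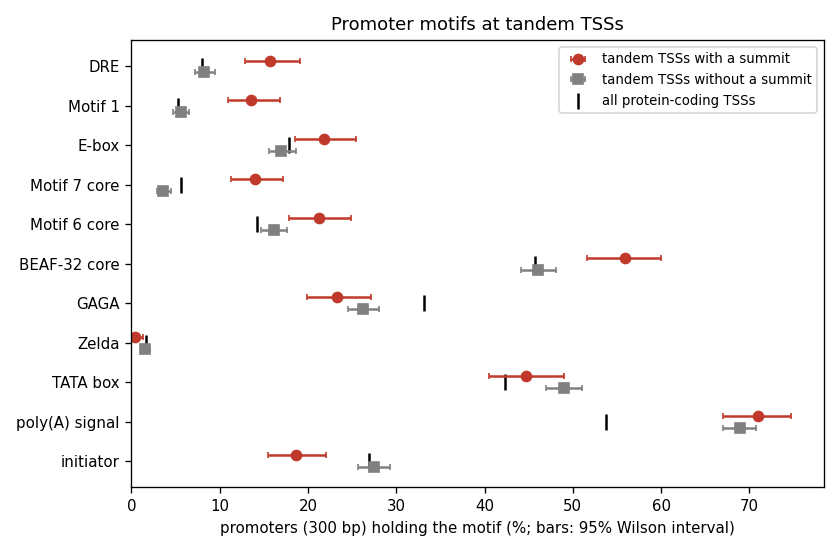
Share of 300 bp promoters (250 bp before to 50 bp after the TSS, %) that hold each of 11 motifs, for the 528 tandem TSSs with a summit (red circles), the 2407 without one (grey squares) and all 19253 protein-coding TSSs (black bars). Whiskers are 95% Wilson intervals. The Motif 7 core was in 14% with and 3.61% without a summit, and the initiator letters TCAGTT in 18.6% with and 27.5% without.

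Tandem promoters dip in GC content whether or not they have a summit, and the other classes dip too. In windows of 51 bp, GC at tandem TSSs was lowest 160 bp upstream of the TSS, at 30.2% with a summit and 32.9% without. Among TSSs with a summit, the minimum was 30.0% at -140 bp for head-to-head and 35.4% at -220 bp for isolated TSSs. At 600 bp upstream of tandem TSSs it was 44.6% with and 45.0% without a summit. At the members' summits GC was 38.9%, against 37.7% at isolated and 34.4% at head-to-head summits, and 500 bp away it was 47.0% at members, 42.7% at isolated and 50.3% at head-to-head summits. The summits' median of -69.0 bp lay on the TSS side of the GC minimum. The difference in GC from isolated summits was 0.819 ± 0.483 points over the replicates (SD, n = 3) and changed sign with other windows.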

How the data were processed

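The 3 ChIP-seq samples are biological replicates of 1 group per the labels, which say nothing more of how they were kept separate. Used here were 5 deposited dm6 peak lists: 1 relaxed list of peaks and background per replicate, 1 for the pooled replicates, and the optimal list that passed the irreproducible discovery rate, called relative to a control per the deposited notes. The authors' signal value has no stated scale, so it served for ranks in its own list alone. The authors' summit is the deposited region start plus the deposited summit offset. Aligner, peak caller and threshold were not given in the sources used here. The lists hold no read counts, so depth is unknown. The dm3 lists were not used, and 0 columns of per-sample values were left unmapped.

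Genes came from Ensembl release 115 (13945 protein-coding genes and 19253 TSS positions on 2L, 2R, 3L, 3R, 4 and X), with the 3' end taken as the end of the gene. Sequence came from the RefSeq copy of Release 6. Each replicate was represented by its 5202 strongest regions, and an overlap of 1 bp or more counted as support. Differences between classes were taken in each replicate and tested by an exact sign-flip permutation test (two-sided). Single shares have 95% Wilson intervals, and a count of 0 is given the limit of 3 counts. Python 3.11.15, numpy 2.4.6 and matplotlib 3.10.9 were used, and the scripts were tested on simulated summits. Genes were named by rule: the 20 strongest members with all 3 replicates, the 3 nearest either side of each limit, and up to 4 members by signal per gene group, with groups set by symbol. The members, lists and motifs were chosen with earlier results of these data known. Alternatives were other windows and distances, stricter peak sets, other overlaps, 1 TSS per gene and leaving out each replicate.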

Additional observations from a re-analysis of the deposited data

How the results depend on the processing

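Of 255 values recomputed under alternative settings, 227 held, 15 moved and 13 changed sign, and the cause was not tested. A difference held when it kept its direction, a share or position when it stayed within 1 replicate SD, and the number of members when it stayed within 1.5 times, from 324 to 622. The members numbered 213 among the strongest 50% of peaks and 139 with the 3' end within 200 bp. Support by all 3 replicates was 98.1% of members among the strongest 50%, 64.8% with an overlap of at least 50% of the peak, and 99.3% against all relaxed regions, and support by both remaining replicates was 75.2 to 81.5% with each replicate left out. The median position was -49.0 bp with the 3' end within 200 bp. The share of summits in the gap was 73.7% among the strongest 50%, 77.8% where no stronger summit lay within 250 bp, 78.8% and 72.1% with TSS windows of 200 and 1000 bp, 56.1% and 78.6% with the 3' end within 200 and 1000 bp, and 71.1% with 1 TSS per gene. Sign changes touched tandem minus isolated differences only. The share of TSSs with a summit turned to -1.74 points (TSS window 1000 bp) and -3.56 (3' end 200 bp). GC turned to -1.15 points (TSS window 200 bp) and -0.233 (motif window 100 bp). The TATA box turned to 2.32 points (TSS window 200 bp). AATAAA turned to 0.841 (TSS window 200 bp), 2.37 (3' end 200 bp), 0.476 (1 TSS per gene) and 7.67 points (motif window 100 bp). The initiator turned to -0.00623 (no stronger summit within 250 bp), -0.136 and -0.147 (TSS windows of 200 and 1000 bp) and -0.754 points (3' end 200 bp). The nearer median position of tandem summits held its direction in 12 of 12 alternatives, from 19.0 to 88.0 bp. So did the CGATA difference in 13 of 13, from 4.33 to 11.3 points. Counting each summit at its nearest TSS only was chosen after seeing the data. No paired analysis was possible because the design holds 1 group; differences between promoter classes were taken within each replicate. With 3 replicates no exact permutation test can pass 0.05, and with no read counts no value could be weighted by depth.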

Other observations

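A search of all words of 8 letters at the summits, made after the data were seen, gave 2 that were then counted in the members, so their values are descriptions and rest on no test. CAACACTG was at 28 of 455 tandem summits (6.15%), 2.53% of isolated and 3.94% of head-to-head summits, and at 0.220% of the members' flanking windows. Of the 47 members with a copy within 250 bp of the summit, 30 (63.8%) had the nearest within 50 bp, with a median distance of 36.5 bp. Both words were picked at the summits, so their frequency and closeness there follow in part from that choice. The same holds for their frequency in promoters with a summit against those without. For this reason they are not ranked against the 11 motifs. In the promoter window CAACACTG was in 8.90% of tandem TSSs with a summit, 2.33% of those without and 3.30% of all. It stands in capitals in the stretch before CG14100. ATCGATAG, which overlaps the DRE and contains CGATA, was at 8.13% of tandem, 3.62% of isolated and 5.72% of head-to-head summits, and in 16.3% of tandem promoters with a summit against 7.27% of those without.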
